A study of Mus musculus with 6 samples.

Results

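The collagen genes of isolated mouse pancreatic islets are described here in 2 genotypes. Members were chosen by symbol: Col, a type number, a and a chain number, and 44 of the 55536 genes in the count table carried such a symbol. They were grouped by known protein type into 11 fibrillar, 8 basement membrane and 25 other collagen genes. No measured value entered the choice of a member, but the family was selected on an earlier result of these data, the higher counts of Col1a1 and Col1a2 in the knockout libraries. Values of these 2 genes are therefore given as a description without a p-value. The adjusted p-values of the other members come from the same libraries and contrast, so neither they nor the number of members past a threshold are independent evidence of a direction.

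The series addresses gene regulation by KLF4, a zinc finger transcription factor, in the alpha cells of the pancreas. Poly(A) RNA was sequenced from whole islets of C57B1/6J mice, 3 libraries per genotype. Control mice were Klf4+/+;Gcg-iCre and knockout mice were Klf4fl/fl;Gcg-iCre, so both genotypes carried the Cre driver of the glucagon gene, and the knockout mice also carried 2 floxed Klf4 alleles. The driver acts in glucagon-producing alpha cells, whereas collagen was measured in the RNA of all cells of the preparation. The labels give neither age nor sex.

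Collagens are trimeric proteins of the extracellular matrix. Fibrillar collagens (types I, III and V among them) form the fibrils of interstitial tissue and are made mainly by fibroblasts, in the pancreas also by stellate cells. Type IV collagen forms the network of basement membranes, and in islets much of it comes from the endothelial cells of the capillaries on which the endocrine cells rest. Type VI collagen forms beaded filaments next to basement membranes, and the remaining types associate with fibrils, anchor epithelia or span cell membranes.

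Libraries held 101277200 to 110243918 counts, and levels are given as CPM, the counts of a gene scaled to a library total of 1000000. The Klf4 transcript ranged from 18.8 to 31.0 CPM in control and from 22.2 to 23.9 CPM in knockout libraries, so the groups overlapped. Counts over the whole gene in whole islets do not show whether the floxed exons were lost in alpha cells. Xist, the RNA of the inactive X chromosome, was at 725 to 1065 CPM in the controls and at 0.117 to 0.290 CPM in the knockouts, and the Y-linked gene Ddx3y was at 0 in the controls and at 53.2 to 60.2 CPM in the knockouts. Genotype and sex thus cannot be told apart in any comparison below. In RNA from whole islets, more cells of a type and more RNA per cell cannot be told apart either. Nothing in the labels says whether the libraries come from separate animals, so p-values measure the spread between these libraries only.

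Per kilobase of exon, the most abundant collagen transcripts of the control islets belonged to the basement membrane. Col4a1 stood at 57.1 ± 3.32 CPM per kilobase and Col4a2 at 41.2 ± 3.99 (SD, n = 3). These are the 2 chains of the ubiquitous type IV trimer. Col3a1 followed at 21.8 ± 3.70, Col1a1 at 18.5 ± 3.40 and Col15a1 at 17.8 ± 1.90 CPM per kilobase, and over merged exons these 3 neighbours did not differ beyond their spread. Over principal transcripts Col3a1 stood apart, at 38.5 CPM per kilobase against 20.5 for Col1a1 and 21.8 for Col15a1. Col6a6 at 14.3 ± 0.872 and Col6a1 at 11.7 ± 1.43 came next. Col1a2 ranked 8th, at 8.95 ± 1.08 CPM per kilobase of merged exons. The rank of Col1a2 also depends on the length used: its merged exons span 12426 bases and its principal transcript 5348, and over the latter it stood at 20.8 CPM per kilobase, rank 5. Col4a1, Col4a2 and Col3a1 held ranks 1 to 3 with either length. At the other end, 9 genes had a mean below 50 normalized counts per library: Col2a1, Col24a1, Col9a1, Col9a3, Col10a1, Col19a1, Col22a1, Col6a4 and Col17a1, with at most 60 counts in any library. Col2a1, the cartilage collagen, had at most 14 counts, and Col9a1 had none in 5 of the 6 libraries.

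All collagen genes together made up 1896, 1837 and 1641 CPM in control replicates 1 to 3 and 2442, 2340 and 2428 CPM in knockout replicates 1 to 3, a ratio of means of 1.34. The fibrillar sum was 568, 630 and 458 CPM in the controls and 974, 891 and 961 CPM in the knockouts, a ratio of 1.71. Every knockout library lay above every control in this sum. The basement membrane sum was 908, 802 and 830 CPM in the controls and 1041, 1015 and 991 CPM in the knockouts, a ratio of 1.20, again without overlap. The other types summed to 421, 405 and 353 CPM and to 427, 434 and 476 CPM, a ratio of 1.13, also without overlap. Within the collagen total, the fibrillar share was 30.7 ± 3.25% in control and 39.2 ± 0.955% in knockout libraries, and the basement membrane share was 47.4 ± 3.49% and 42.3 ± 1.31% (SD, n = 3 each). These values rest in large part on Col1a1 and Col1a2, on which the family was selected. Without these 2 genes the fibrillar sum was 319 ± 51.5 CPM in control and 497 ± 19.4 CPM in knockout libraries, a ratio of 1.56. The difference of its means was then 178 CPM, beside 169 CPM for the basement membrane class, and its share was 20.4 ± 2.55% and 25.4 ± 0.617%. The basement membrane share without these 2 genes was 54.4 ± 3.22% and 51.9 ± 1.21%.

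**Figure D1:**
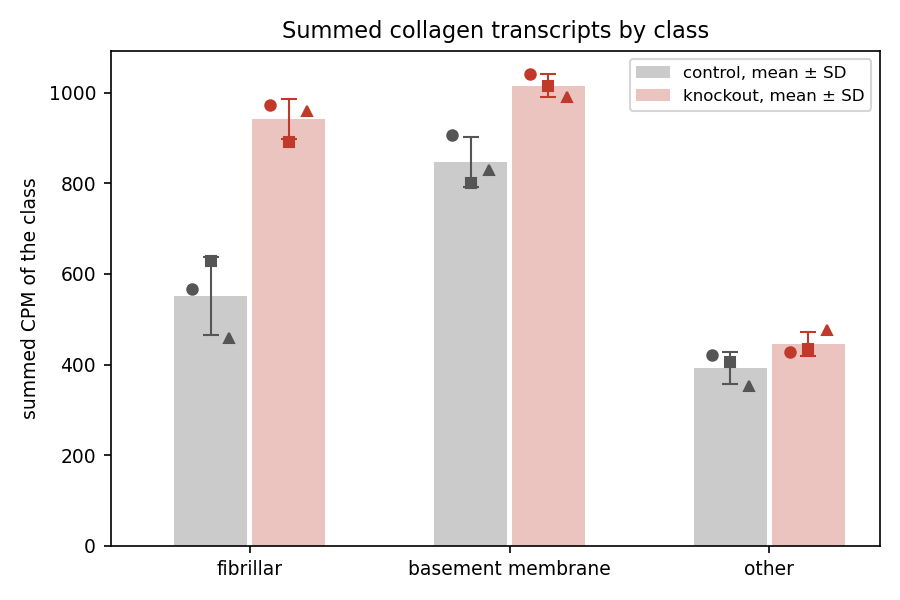
Summed CPM of the fibrillar, basement membrane and other collagen genes; bars are means, error bars SD over 3 libraries, and points are single libraries. The fibrillar sum lies between 458 and 630 CPM in the controls and between 891 and 974 CPM in the knockouts.

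In the DESeq2 fit over all genes, 11 collagen genes were higher and 1 was lower in the knockout libraries at an adjusted p under 0.05, out of the 38 members given an adjusted p. Over all 17797 genes given one, 1.53% were higher, 0.657% lower and 2.19% passed in either direction; since earlier results prompted the choice of the family, nothing is read from this contrast. By class, 5 of 9 fibrillar genes, 2 of 8 basement membrane genes and 4 of 21 other genes with an adjusted p were higher. Col1a1 and Col1a2, on which the family was selected, are among the 11. In the edgeR quasi-likelihood test, which called 0.115% of all genes, 9 of the 12 did not pass, and nothing is read from the number that did. Before adjustment, 16 of the 44 members in edgeR and 18 in DESeq2 were under 0.05, against 9.48% and 9.03% of all genes with a p-value. Col1a1 and Col1a2 are among them in both tools. Without knockout replicate 1 the DESeq2 count was 7.

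Of the 35 collagen genes with a mean of at least 50 normalized counts, 24 had a log2 fold change above 0, against 48.1% of all genes at that level. Their median log2 fold change was 0.21, against -0.0066 for all such genes. It was 0.37 over 9 fibrillar, 0.28 over 8 basement membrane and -0.0040 over 18 other genes. All 3 knockout libraries lay above all 3 controls for 16 members and below them for 1, against 9.04% and 8.23% of all genes. Col1a1 and Col1a2, on which the family was selected, are among the 24 and the 16. They also enter the medians of the 35 members and of the 9 fibrillar genes. Nothing is read from these contrasts with all genes.

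**Figure D2:**
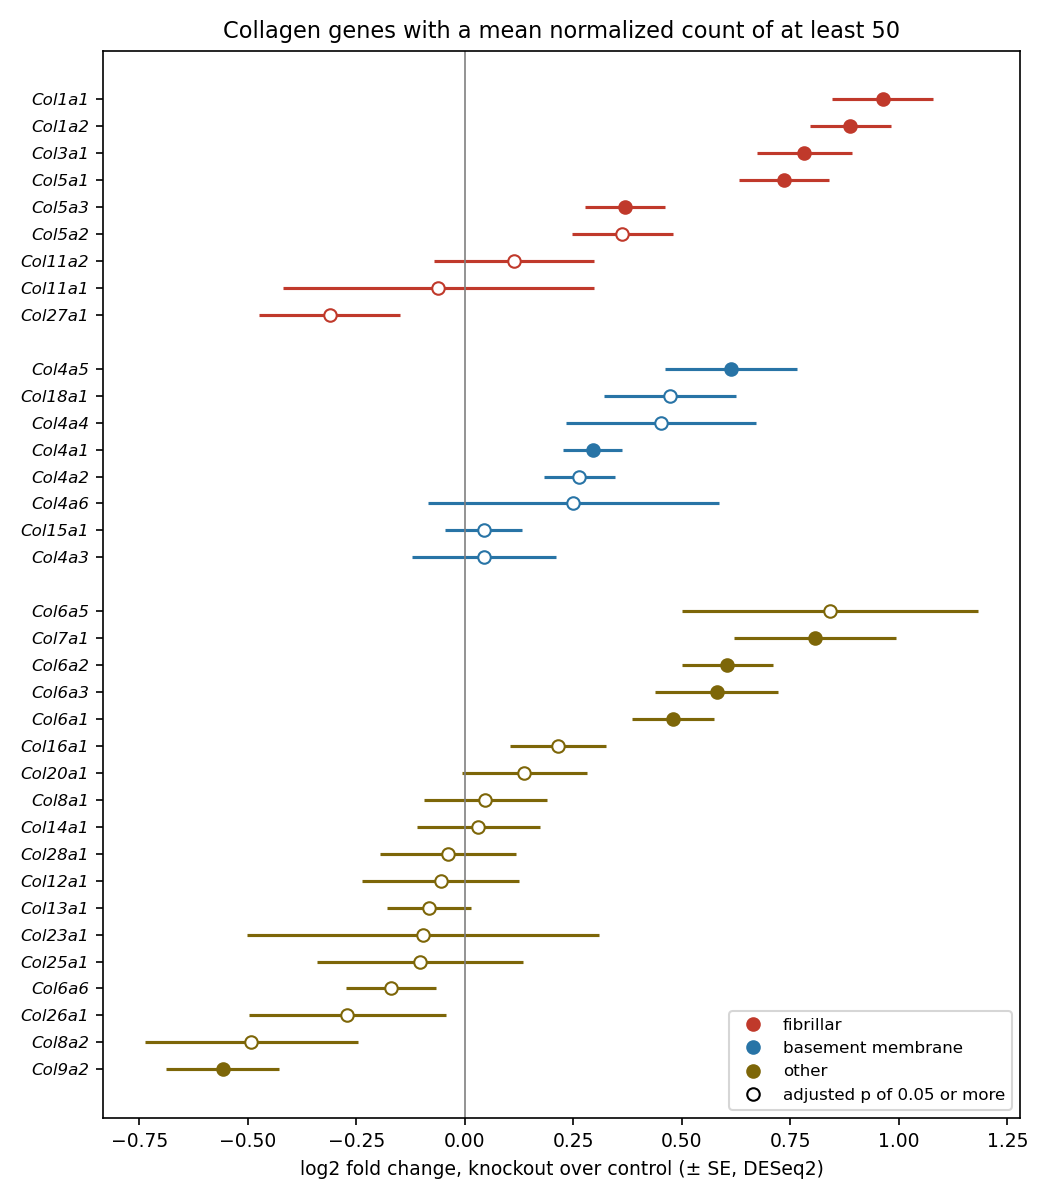
Log2 fold change of knockout over control with its SE from DESeq2 for the 35 collagen genes with a mean of at least 50 normalized counts, by class; filled points passed an adjusted p of 0.05 over all genes. Fibrillar values run from -0.31 (Col27a1) to 0.96 (Col1a1), and all 8 basement membrane values lie above 0.

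The major fibrillar genes above 50 normalized counts are Col1a1, Col1a2 and Col3a1. Col1a1 (ENSMUSG00000001506, chromosome 11, 94936224 to 94953042, GRCm38), which encodes the alpha 1 chain of type I collagen, was at 129, 140 and 96.7 CPM in control replicates 1 to 3 and at 246, 219 and 248 CPM in knockout replicates 1 to 3. Col1a2 (ENSMUSG00000029661, chromosome 6, 4504814 to 4541544), the alpha 2 chain of the same trimer, was at 110, 125 and 98.7 CPM and at 211, 194 and 216 CPM. In both genes control replicate 3 was lowest and no knockout library reached down to a control. The ratios of means were 1.95 and 1.86. Col3a1 (ENSMUSG00000026043, chromosome 1, 45311538 to 45349706), which forms the homotrimer of type III collagen in the same fibrils, was at 213, 251 and 178 CPM in the controls and at 389, 355 and 363 CPM in the knockouts. Its groups did not overlap, and it rose by 0.78 ± 0.11 on the log2 scale (DESeq2, value ± SE, adjusted p = 9.9e-10); in edgeR it fell just short (adjusted p = 0.0511).

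Type V collagen helps to start type I fibrils and limits their width. Col5a1 (ENSMUSG00000026837, chromosome 2), its alpha 1 chain, was at 27.2, 29.5 and 22.7 CPM in the controls and at 44.4, 41.0 and 47.1 CPM in the knockouts. It rose by 0.73 ± 0.10 on the log2 scale (DESeq2 adjusted p = 8.68e-10, edgeR adjusted p = 0.0257). Its exons overlap 2 genes on the opposite strand over 212 bases, so its count is uncertain there. Col5a2 (ENSMUSG00000026042, chromosome 1), the alpha 2 chain, was at 22.3, 22.2 and 16.7 CPM and at 26.2, 24.2 and 28.6 CPM. The groups of Col5a2 did not overlap, but its log2 fold change of 0.36 ± 0.12 did not pass (DESeq2 adjusted p = 0.0689). Col5a3 (ENSMUSG00000004098, chromosome 9), the third chain of the type, rose from 18.4 ± 1.30 to 23.9 ± 1.73 CPM (SD, n = 3 each; log2 fold change 0.37 ± 0.09, DESeq2 adjusted p = 0.00626, edgeR adjusted p = 0.183). The call for Col5a3 was lost without knockout replicate 1 and without knockout replicate 3. Col5a3 and Col5a2 had nearly the same fold change on different sides of the threshold.

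The remaining fibrillar genes did not pass. Col27a1, a fibrillar collagen known from cartilage, was at 38.8, 34.9 and 22.5 CPM in the controls and at 24.3, 29.1 and 24.0 CPM in the knockouts, with a log2 fold change of -0.31 ± 0.16. Its groups overlapped through control replicate 3, and without that library it passed as lower, at -0.50 (DESeq2 adjusted p = 0.000875). Col11a2 lay between 4.47 and 7.72 CPM and Col11a1 between 0.635 and 1.54 CPM over the 6 libraries. Both encode chains of the cartilage collagen type XI, and their groups overlapped.

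**Figure D3:**
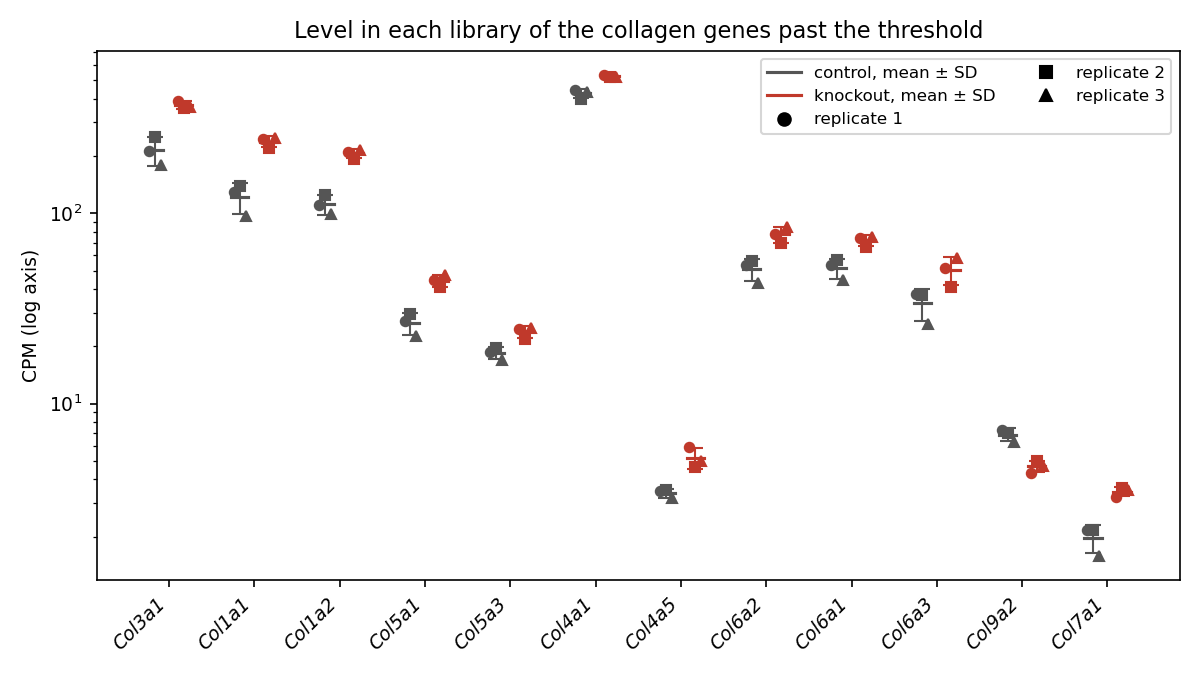
CPM on a log axis in each library for the 12 collagen genes past the DESeq2 threshold, with group means and SD (n = 3). Knockout points lie above control points for 11 genes and below them for Col9a2.

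Sequences at the transcription starts are shown for 3 fibrillar genes that were higher in the knockout libraries, because CACCC is a core of the sites bound by KLF factors. Each window, from RefSeq on GRCm38.p6, runs from 250 bases before to 50 after a start, 5′ to 3′ on the gene's strand, and capitals mark CACCC or its reverse complement GGGTG. The Col1a2 window is chr6:4505368-4505667, plus strand, the Col3a1 window chr1:45311288-45311587, plus strand, and the Col5a1 window chr2:27886175-27886474, plus strand.
Col1a2: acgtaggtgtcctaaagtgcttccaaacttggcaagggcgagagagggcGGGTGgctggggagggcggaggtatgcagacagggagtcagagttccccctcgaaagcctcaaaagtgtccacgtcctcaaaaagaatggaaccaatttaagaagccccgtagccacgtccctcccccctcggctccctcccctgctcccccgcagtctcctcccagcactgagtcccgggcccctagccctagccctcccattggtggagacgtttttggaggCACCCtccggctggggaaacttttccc
Col3a1: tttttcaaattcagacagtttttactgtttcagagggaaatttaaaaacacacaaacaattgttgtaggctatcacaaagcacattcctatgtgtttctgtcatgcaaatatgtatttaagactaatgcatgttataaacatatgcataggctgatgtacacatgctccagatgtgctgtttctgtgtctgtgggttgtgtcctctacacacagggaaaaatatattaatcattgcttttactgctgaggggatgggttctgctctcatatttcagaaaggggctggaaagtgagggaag
Col5a1: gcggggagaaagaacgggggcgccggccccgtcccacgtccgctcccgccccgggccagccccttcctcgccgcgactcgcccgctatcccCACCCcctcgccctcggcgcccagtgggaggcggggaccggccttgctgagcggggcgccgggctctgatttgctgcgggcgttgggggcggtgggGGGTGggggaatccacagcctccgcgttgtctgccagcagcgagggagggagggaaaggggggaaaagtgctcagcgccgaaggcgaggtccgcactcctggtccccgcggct
Col1a2 and Col5a1 each hold 2 such matches. Col3a1 holds 0, which says only that these letters are not in this window. Windows were found for 35 of the 44 members, 38 windows in all, and none for Col1a1. CACCC on either strand was in 29 of the 38 windows, against 57.5% of 32851 windows of all genes. It was in a window of 7 of the 11 collagen genes past the threshold and of 19 of the 24 others, counted whether or not a match shares bases with another motif. A match is a run of letters and not a measured binding site.

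In the basement membrane class, 2 of 8 genes passed the DESeq2 threshold as higher, Col4a1 and Col4a5, against 1.53% of all genes. The log2 fold change was above 0 for all 8, against 48.1% of all genes. In 5 of the 8 every knockout lay above every control, against 9.04% of all genes. Col4a1 (ENSMUSG00000031502, chromosome 8, 11198423 to 11312826) had more counts than any other collagen gene in every library, at 445, 398 and 435 CPM in the controls and at 533, 519 and 522 CPM in the knockouts. It rose by 0.29 ± 0.07 on the log2 scale (DESeq2 adjusted p = 0.00247), a ratio of means of 1.23. Col4a2 (ENSMUSG00000031503, chromosome 8, 11312805 to 11449287), its partner chain, was at 302, 250 and 267 CPM and at 334, 336 and 315 CPM. All knockouts lay above all controls, but its log2 fold change of 0.26 ± 0.08 stopped just short of the threshold (DESeq2 adjusted p = 0.052); with TMM factors it passed (adjusted p = 0.0394). Neither gene passed in edgeR (adjusted p = 0.232 and 0.331), and the call for Col4a1 was lost without knockout replicate 1.

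The 2 genes lie head to head, and their windows are shown because they share bases. The Col4a1 window is chr8:11312777-11313076, minus strand, and the Col4a2 window chr8:11312555-11312854, plus strand. Capitals mark the 78 bases that lie in both windows, read in opposite directions.
Col4a1: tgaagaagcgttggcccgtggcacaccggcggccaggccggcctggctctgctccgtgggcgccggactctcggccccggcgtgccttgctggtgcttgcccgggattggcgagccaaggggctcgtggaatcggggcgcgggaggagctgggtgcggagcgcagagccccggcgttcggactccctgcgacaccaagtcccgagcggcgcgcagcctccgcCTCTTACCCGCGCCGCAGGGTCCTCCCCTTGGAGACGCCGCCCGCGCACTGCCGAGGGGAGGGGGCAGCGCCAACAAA
Col4a2: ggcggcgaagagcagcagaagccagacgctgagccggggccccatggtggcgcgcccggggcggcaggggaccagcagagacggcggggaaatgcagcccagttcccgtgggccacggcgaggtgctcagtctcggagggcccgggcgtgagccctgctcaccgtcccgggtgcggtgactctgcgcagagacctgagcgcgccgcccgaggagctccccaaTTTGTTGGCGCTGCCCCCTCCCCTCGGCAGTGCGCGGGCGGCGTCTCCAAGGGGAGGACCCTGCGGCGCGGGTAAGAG
The ratio of Col4a1 to Col4a2 counts within a library was 1.48, 1.59 and 1.63 in the controls and 1.59, 1.54 and 1.66 in the knockouts. The groups overlapped, and all 6 ratios lay between 1.48 and 1.66. Their annotated exons overlap by 22 bases on opposite strands, and counts in that stretch are uncertain because the strand setting of the counting is not given in the sources used here.

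The minor type IV chains, which form the specialised networks known from kidney, lung and other epithelia, were far rarer. Col4a5 (ENSMUSG00000031274, chromosome X, 141475385 to 141689234) was at 3.46, 3.53 and 3.18 CPM in the controls and at 5.95, 4.66 and 4.99 CPM in the knockouts. It rose by 0.61 ± 0.15 on the log2 scale (DESeq2 adjusted p = 0.00621, edgeR adjusted p = 0.203), and the call was lost without knockout replicate 1. Col4a6, its neighbour on the X chromosome with a start on the opposite strand, was at 0.525 ± 0.0378 and 0.625 ± 0.0564 CPM (SD, n = 3 each), with a log2 fold change of 0.25 ± 0.34 that did not pass. The windows of Col4a5 and Col4a6 lie 842 bases apart. The ratio of Col4a5 to Col4a6 was 6.10, 7.15 and 6.19 in the controls and 8.63, 8 and 8.26 in the knockouts, without overlap. Both genes are X-linked, and sex followed genotype in all libraries.

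Col4a3 and Col4a4 are another head-to-head pair, on chromosome 1. Col4a3 overlapped between the groups, at 7.17 ± 1.44 and 7.39 ± 1.03 CPM, and its fold change had a 95% confidence interval from -0.28 to 0.37 on the log2 scale. Col4a4 was at 7.09, 3.73 and 3.91 CPM in the controls and at 7.38, 6.68 and 6.02 CPM in the knockouts. Control replicate 1 lay among the knockouts, and the log2 fold change of 0.45 ± 0.22 did not pass (DESeq2 adjusted p = 0.392). Without that library it was 0.78 and passed (adjusted p = 0.000264). Col4a3 overlaps an exon of a gene on the opposite strand over 563 bases, so its count is uncertain.

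The multiplexins are collagens of the basement membrane zone that carry glycosaminoglycan chains. Col15a1 (ENSMUSG00000028339, chromosome 4) was at 120, 120 and 98.9 CPM in the controls and at 120, 119 and 111 CPM in the knockouts. Its log2 fold change of 0.04 ± 0.09 has a 95% interval from -0.13 to 0.21, and its groups overlapped. Col18a1 (ENSMUSG00000001435, chromosome 10), the source of the endostatin fragment, was at 21.3, 20.1 and 15.5 CPM and at 32.5, 21.4 and 25.2 CPM. The groups did not overlap, yet the log2 fold change of 0.47 ± 0.15 did not pass (DESeq2 adjusted p = 0.0698). It was 0.59 without knockout replicate 2 and passed (adjusted p = 0.0253), and 0.29 without knockout replicate 1 (adjusted p = 0.663).

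Type VI collagen rose in its 3 classical chains. Col6a1 (chromosome 10) went from 51.4 ± 6.25 to 71.9 ± 4.54 CPM, Col6a2 (chromosome 10) from 50.8 ± 6.84 to 77.5 ± 7.62 CPM and Col6a3 (chromosome 1) from 33.6 ± 6.41 to 50.3 ± 8.57 CPM (SD, n = 3 each). Their log2 fold changes were 0.48 ± 0.10, 0.61 ± 0.10 and 0.58 ± 0.14, with DESeq2 adjusted p-values of 0.000147, 3.66e-06 and 0.00478. None passed in edgeR, where the adjusted p-values were 0.130, 0.0875 and 0.240, and the call for Col6a3 was lost without knockout replicate 1 and without knockout replicate 3. In each of these genes the lowest knockout value was that of replicate 2 and lay above the highest control.

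Col6a6, an alternative chain that can take the place of the alpha 3 chain, did not share the rise. It was at 138, 122 and 132 CPM in the controls and at 98.8, 126 and 125 CPM in the knockouts. At 130.6 CPM on average in the controls it was the most abundant type VI transcript, per kilobase as well, at 14.3 against 11.7 for Col6a1, 6.10 for Col6a2 and 2.81 for Col6a3. Over principal transcripts the lead was smaller, at 14.9 CPM per kilobase against 12.9 for Col6a2, 12.5 for Col6a1 and 3.73 for Col6a3. Its log2 fold change of -0.17 ± 0.10 did not pass, and the 95% interval from -0.37 to 0.033 does not reach the values of Col6a1, Col6a2 and Col6a3. Col6a5, another alternative chain, was at 1.59, 2.71 and 0.810 CPM in the controls and at 3.63, 2.84 and 2.71 CPM in the knockouts. The highest control and the lowest knockout were almost equal, and the log2 fold change of 0.84 ± 0.34 did not pass (DESeq2 adjusted p = 0.223). Without control replicate 2 it was 1.36 and passed (adjusted p = 0.00272).

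Among the rest, 1 gene passed the DESeq2 threshold as higher and 1 as lower. Col7a1 (ENSMUSG00000025650, chromosome 9), the anchoring fibril collagen of epithelia, was at 2.17, 2.16 and 1.58 CPM in the controls and at 3.24, 3.62 and 3.50 CPM in the knockouts. It rose by 0.81 ± 0.19 on the log2 scale (DESeq2 adjusted p = 0.00219, edgeR adjusted p = 0.178) and passed in each fit that left out 1 library. Col9a2 (ENSMUSG00000028626, chromosome 4), a chain of the fibril-associated type IX collagen of cartilage, was at 7.31, 7.04 and 6.28 CPM in the controls and at 4.34, 4.99 and 4.72 CPM in the knockouts. With every knockout below every control, it fell by 0.56 on the log2 scale (SE 0.13, DESeq2 adjusted p = 0.00241, edgeR adjusted p = 0.186). The call was lost without knockout replicate 1. Its partner chains Col9a1 and Col9a3 were among the genes below 50 normalized counts.

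The other fibril-associated genes above 50 normalized counts did not pass. Col14a1, which binds type I fibrils, was at 35.9 ± 8.20 CPM in controls and 36.8 ± 1.70 CPM in knockouts, and its 95% interval ran from -0.24 to 0.31 on the log2 scale. Col16a1 was at 14.9 ± 1.42 and 17.4 ± 1.95 CPM, Col20a1 at 11.9 ± 2.56 and 13.1 ± 0.693 CPM and Col12a1 at 7.20 ± 1.67 and 6.94 ± 1.01 CPM (SD, n = 3 each). In all 4 genes the groups overlapped.

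Transmembrane and short-chain collagens did not pass either. Col13a1, a transmembrane collagen of cell adhesions, was at 22.5, 19.4 and 23.0 CPM in the controls and at 20.7, 19.8 and 20.97 CPM in the knockouts, with a 95% interval from -0.27 to 0.11. Col25a1 lay between 1.51 and 2.20 CPM and Col23a1 between 0.395 and 0.780 CPM over the 6 libraries. Col8a1, a network collagen of vessels and of the corneal endothelial membrane, was at 6.46 ± 0.585 and 6.71 ± 0.963 CPM, and its partner Col8a2 at 2.15 ± 0.528 and 1.53 ± 0.243 CPM with a log2 fold change of -0.49 ± 0.24 (DESeq2 adjusted p = 0.414). Col28a1, known from glial cells of peripheral nerves, was at 10.2 ± 2.00 and 9.91 ± 1.32 CPM. Col26a1 was at 2.04 ± 0.222 and 1.70 ± 0.304 CPM, with a log2 fold change of -0.27 ± 0.23 that did not pass.

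Ratios of 2 genes within a library do not depend on the library's scaling. The ratio of Col1a1 to Col1a2 was 1.17, 1.12 and 0.980 in the controls and 1.17, 1.13 and 1.15 in the knockouts, so the groups overlapped in the proportion of the 2 chains of type I collagen. Col3a1 relative to Col1a1 was lower in every knockout library, at 1.58, 1.62 and 1.46 against 1.66, 1.79 and 1.84. The family was selected on higher Col1a1 counts in these knockout libraries, so this ratio is not independent of that choice. Col5a1 relative to Col5a2 was higher in every knockout library, at 1.70, 1.69 and 1.65 against 1.22, 1.33 and 1.36. Col3a1 relative to its neighbour on chromosome 1, Col5a2, was likewise higher, at 14.9, 14.6 and 12.7 against 9.54, 11.3 and 10.7. The groups did not overlap in these ratios of 2 type V chains and of 2 adjacent fibrillar genes, whereas the ratios of the type I chains and of the major type IV chains overlapped. Among single genes, 9.04% lay higher and 8.23% lower in the knockouts without overlap. The share of all gene pairs whose ratios do not overlap was not computed. Col6a1 relative to Col6a2 was slightly lower in the knockouts, at 0.960, 0.955 and 0.876 against 0.995, 1.01 and 1.03. These ratios were not tested.

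**Figure D4:**
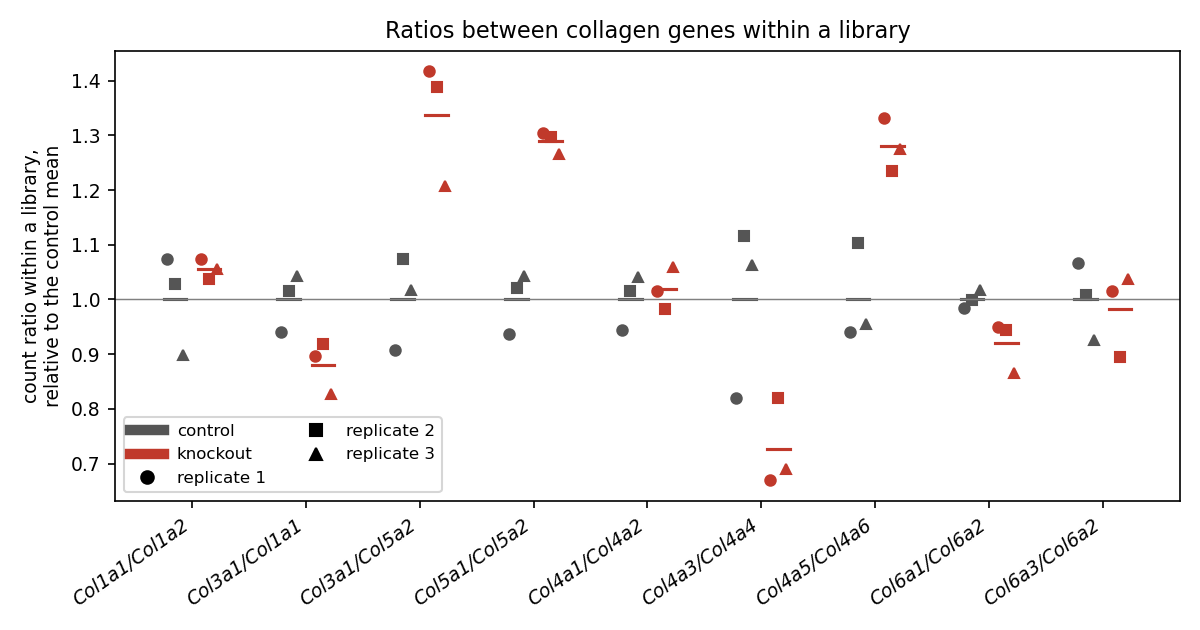
Ratio of the counts of 2 collagen genes within each library, divided by the mean ratio of the 3 controls; short lines are group means. Col5a1/Col5a2 and Col4a5/Col4a6 are higher in every knockout library, and Col1a1/Col1a2 and Col4a1/Col4a2 overlap.

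Single libraries moved many collagens together. Control replicate 3 was the lowest control for 27 of the 35 members with a mean of at least 50 normalized counts, against 43.4% of all genes at that level. Control replicate 1 was lowest for 0 of them, against 20.0% of all genes. Over the 6 fits that each left out 1 library, the log2 fold change of Col3a1 ran from 0.68 to 0.92. It ran from 0.84 to 1.08 for Col1a1 and from 0.83 to 0.99 for Col1a2, the genes on which the family was selected. Some other members had wider ranges, among them Col6a5 from 0.52 to 1.36 and Col4a4 from 0.29 to 0.78.

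Genes that make, process, bind and degrade collagen were then read from the same fit. Of 22 genes of procollagen synthesis and folding, 0 passed in DESeq2 or edgeR, with 3 at an unadjusted p under 0.05 in each tool (all genes: 9.03% in DESeq2, 9.48% in edgeR), and the median log2 fold change was -0.010. Of 14 genes of procollagen processing and cross-linking, 2 passed as higher and 0 as lower in DESeq2, against 1.53% and 0.657% of all genes. Adamts2, which cuts the amino-terminal propeptide from procollagens, rose from 13.7 ± 1.76 to 19.7 ± 2.01 CPM, and Tgm2, a transglutaminase that cross-links matrix proteins, from 25.3 ± 0.268 to 32.6 ± 3.36 CPM (SD, n = 3 each). Their DESeq2 adjusted p-values were 0.00257 and 0.0121. The 3 synthesis genes with an unadjusted p under 0.05 in DESeq2, named after their values were seen, did not point one way. Serpinh1, the chaperone of procollagen, had a log2 fold change of 0.25 ± 0.09, P4ha3, a prolyl hydroxylase subunit below 50 normalized counts, -1.45 ± 0.47, and Sec23a, a coat protein of secretory vesicles, -0.17 ± 0.08 (DESeq2 adjusted p = 0.112, 0.07 and 0.368).

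Collagen receptors gave 2 higher and 0 lower of the 10 with an adjusted p, against 1.53% and 0.657% of all genes. Mrc2, an endocytic receptor for collagen, rose from 3.91 ± 0.294 to 5.66 ± 0.875 CPM and Itga1, the alpha 1 integrin that binds type IV collagen, from 39.5 ± 4.28 to 49.4 ± 2.68 CPM (SD, n = 3 each; DESeq2 adjusted p = 0.0314 and 0.037). In the list of matrix degradation, 1 of 10 passed as higher: Ctsk, a collagen-cleaving cathepsin, went from 1.88 ± 0.393 to 3.42 ± 0.195 CPM (DESeq2 adjusted p = 0.00136). Among 15 other basement membrane proteins 1 passed as higher, the laminin chain Lamc3, which went from 2.89 ± 0.784 to 5.39 ± 1.62 CPM (DESeq2 adjusted p = 0.0197). The median log2 fold changes of the processing, receptor, degradation and basement membrane lists were 0.16, 0.26, 0.18 and 0.18, against -0.0066 over all genes.

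Other interstitial matrix proteins had 5 of 20 members higher and 0 lower, against 1.53% and 0.657% of all genes, with a median log2 fold change of 0.24. Their summed level was 698 to 842 CPM in the controls and 955 to 989 CPM in the knockouts, without overlap, and Sparc alone made up 321 ± 21.5 and 393 ± 3.08 CPM of it (SD, n = 3 each). Fmod, a small proteoglycan that binds fibrils of type I collagen, rose by 1.18 ± 0.29 on the log2 scale, and the matrix protein Fbln1 rose by 0.61 ± 0.13 (DESeq2 adjusted p = 0.0063 and 0.000564). Prelp, a leucine-rich repeat protein, went from 10.8 ± 0.400 to 15.3 ± 0.859 CPM and Dcn, the fibril-binding proteoglycan decorin, from 46.4 ± 6.07 to 63.9 ± 3.16 CPM (DESeq2 adjusted p = 0.000278 and 0.000577). In edgeR 0 genes of the 6 pathway lists passed. Those at an unadjusted p under 0.05 ran from 3 of 22 synthesis genes to 9 of 20 interstitial matrix genes, against 9.48% of all genes.

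Markers of the cells an islet preparation can hold were read beside the collagens. Fibroblast and stellate cell markers had 2 of 5 members higher, against 1.53% of all genes: Pdgfra, the receptor that marks fibroblasts, was at 5.76, 5.99 and 5.83 CPM in the controls and at 11.1, 9.25 and 11.9 CPM in the knockouts, and rose by 0.87 ± 0.13 on the log2 scale (DESeq2 adjusted p = 3.06e-09, edgeR adjusted p = 0.0343). Dcn was the other. Lum, Dpt and Pdgfrb, the other fibroblast and stellate markers, had log2 fold changes of 0.33, 0.072 and 0.13 and did not pass. The summed level of the 5 markers was 105 to 125 CPM in the controls and 143 to 155 CPM in the knockouts, a ratio of 1.26 beside 1.56 for the fibrillar collagens other than Col1a1 and Col1a2. None of the 5 was at 0, and the part of these cells in the collagen differences was not tested.

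Acinar markers, genes of digestive enzymes made by exocrine cells, also separated the groups. Their 5 members summed to 3771 to 7669 CPM in the controls and to 9907 to 13630 CPM in the knockouts, a ratio of 2.20. None passed in DESeq2 (adjusted p from 0.074 for Ctrb1 to 0.178 for Cela2a) or in edgeR, and all 5 had an unadjusted p under 0.05 in both tools, against 9.03% and 9.48% of all genes. The sums of the 2 groups did not overlap, and the part of exocrine transcripts in the collagen differences was not tested. Duct markers summed to 210 to 217 and 233 to 284 CPM, but Krt7 made up most of this sum, at 204 ± 3.02 and 249 ± 26.3 CPM (SD, n = 3 each). Krt7 passed in DESeq2 (adjusted p = 0.0444) and not in edgeR (adjusted p = 0.315). Krt19, Sox9 and Cftr had log2 fold changes of 0.34, -0.11 and -0.51 and did not pass.

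Markers of endothelial cells and of pericytes and smooth muscle did not pass in any of 6 and 7 members. All 6 endothelial markers had a log2 fold change above 0, against 48.1% of all genes, with a median of 0.12. The sums were 669 to 771 and 757 to 837 CPM for endothelial cells, a ratio of 1.10. They were 432 to 454 and 399 to 443 CPM for pericytes and smooth muscle, and the groups overlapped in both. Rgs5 made up most of the latter sum, at 270 and 258 CPM on average. Acta2, Myh11 and Kcnj8 were lower in every knockout library, against 8.23% of all genes. Their log2 fold changes were -0.29, -0.25 and -0.16, and 3 of the 7 markers were above 0. An unadjusted p under 0.05 was given to 2 of the 7 in each tool (all genes: 9.03% in DESeq2, 9.48% in edgeR). Schwann cell markers summed to 38.0 to 51.4 and 37.7 to 42.7 CPM and macrophage markers to 74.3 to 86.8 and 70.5 to 82.3 CPM, without separating the groups. Of the 4 macrophage markers, Cd68 was higher in DESeq2 (adjusted p = 0.0416) and did not pass in edgeR (adjusted p = 0.314). C1qa, the most abundant, was at 55.8 ± 7.12 and 46.1 ± 6.73 CPM (SD, n = 3 each) and did not pass, nor did Adgre1 and Csf1r. Mesothelial markers summed to 64.5 to 121 and 44.9 to 64.6 CPM, and the 3 adipocyte markers stayed below 0.175 CPM in sum. Endocrine markers made up 230800 to 258600 and 231900 to 236900 CPM, and 1 of 6, Gcg, fell in DESeq2 (log2 fold change -0.56, adjusted p = 0.00332; edgeR adjusted p = 0.402).

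**Figure D5:**
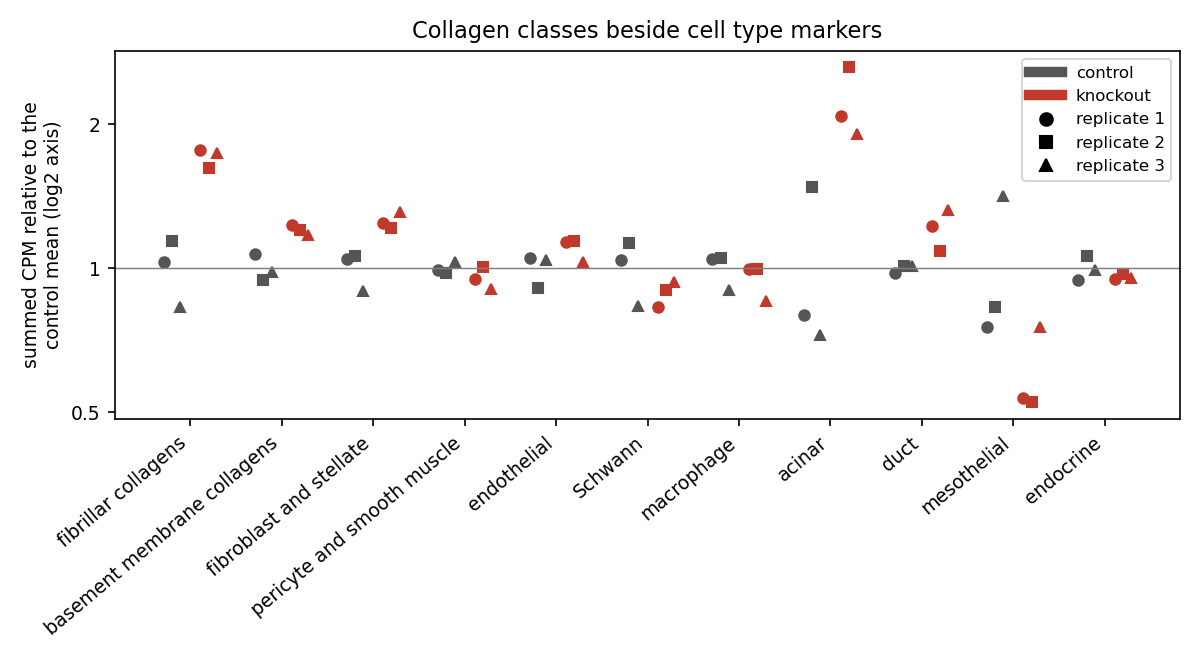
Summed CPM of the fibrillar and basement membrane collagens and of marker lists of the cell types an islet preparation can hold, in each library, divided by the mean of the 3 controls, on a log2 axis. Fibroblast and stellate, acinar and duct sums lie higher in every knockout library, the duct sum being mostly Krt7, whereas endothelial, pericyte, Schwann and macrophage sums overlap.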

How the data were processed

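Poly(A) RNA of isolated mouse islets was sequenced, and the deposited table holds whole-number counts per gene in 6 libraries, 3 per genotype. FastQC, STAR, featureCounts, DESeq2 and the build mm10 are named in the submitters' processing notes; versions, the annotation and the strand setting are not given in the sources used here. All 55536 gene names matched GENCODE M21, from which coordinates and exon lengths were taken. Genes with at least 10 counts in total were fitted with DESeq2 1.42.0 (Wald test by genotype, Benjamini-Hochberg threshold 0.05), the tool the series names, in R 4.3.3. The edgeR 4.0.16 quasi-likelihood test, TMM factors, other filters and thresholds, a replicate block, leaving out each library and, added after seeing the data, the principal transcript length and class sums without Col1a1 and Col1a2 were alternatives. The fit was tested on simulated data with known changes, where DESeq2 recovered more of them than edgeR and made more false calls than edgeR and than its threshold allows.

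Libraries held 101277200 to 110243918 counts, and 3 counts, the floor for a count of 0, correspond to 0.0272 to 0.0296 CPM. Every collagen gene with a mean of at least 50 normalized counts was named with values, the others with counts only, and from each pathway list up to 4 genes past the threshold with the largest change. The members and the lists were chosen with earlier results of these data known. Intervals of fold changes are 95% Wald intervals. Promoter windows came from RefSeq.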

Additional observations from a re-analysis of the deposited data

How the results depend on the processing

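Of 12 collagen genes past the DESeq2 threshold, 3 passed in edgeR and 0 when a log2 change of at least 1 in size was also asked for; the fits without 1 library gave 7 to 14, with 7 without knockout replicate 1. For the fibrillar class (5, of which Col1a1 and Col1a2 prompted the choice of the family) edgeR gave 3, these 2 and Col5a1, the minimum fold change 0 and the fits without 1 library 4 to 6. For the basement membrane class (2) edgeR gave 0, the minimum fold change 0, an adjusted p of 0.1 gave 4, and the fits without 1 library 0 to 4, with 0 without knockout replicate 1 and 4 without control replicate 1. For the other types (5) edgeR gave 0, the minimum fold change 0 and the fits without 1 library 3 to 6, with 3 without knockout replicate 1. Same-numbered libraries of both genotypes did not deviate together (correlations -0.048, -0.059 and 0.010 over 15811 genes), so the numbers were not read as pairs. The replicate block gave 13 calls, 11 of them shared: Col18a1 and Col4a2 were gained and Col4a5 was lost. The cause of these shifts was not tested. TMM factors gave 13, and the other filters of DESeq2 gave 12. Over 21 genes and all alternatives, 274 of 315 fold changes kept their side of the threshold, 29 lost it, 12 gained it and 0 reversed. Depth limits the genes below 50 normalized counts, whose fold changes have standard errors of 0.39 to 1.73 on the log2 scale where fitted. Sex followed genotype in all libraries and no alternative separates them.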
